A study of Mus musculus with 8 samples.

Results

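The distal end of mouse chromosome 4 was examined as the 1672 bins of 5 kb whose position in the timing table lay from 148000000 to 156355000 (build mm10). The region was picked as a gene-rich end with earlier results of these data known, and its bins were then set by position alone. They covered 8.36 Mb, 5.45% of the 30659 positions of the chromosome with a score in every profile. All 1672 were scored, and position 156355000 was the last scored position of the chromosome. Repli-seq, which sequences DNA newly made early or late in S phase, was done on mouse embryonic stem cells (mESC). The control line was JM8N4, and the other cells were labelled as carrying a Klf4 enhancer deletion. Klf4 encodes a transcription factor of pluripotent cells and also lies on chromosome 4, outside the region. The deleted interval, the number of clones and the culture medium were not given in the sources used here, and both groups had the same 2 h BrdU label. Each genotype had 2 profiles, and each profile joined 1 early and 1 late S-phase library, so that 8 libraries gave 4 profiles. Whether replicates were separate cultures is not stated, and the tests below measure only the spread between these profiles, which may be technical.

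Replication timing describes when in S phase a stretch of the genome is copied. Early domains are usually rich in genes and open chromatin, and late domains are usually gene-poor and often contact the nuclear lamina. Between them lie transition slopes, and a short late stretch inside an early domain appears as a valley. The scores compare early with late S-phase DNA on a scale whose log base no source used here gives. They had an interquartile range over the chromosome of 4.60 in each profile. Positive scores were read as early and negative as late, because 500 kb windows outside the region with more genes had higher scores (Spearman rho 0.736 over 290 windows, a description, since neighbouring windows share domains). That early scores go with genes outside the region therefore follows from this reading and is not a separate result.

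The region was early over most of its length and carried genes of broad interest to stem cell biology. Among them was the cluster of microRNA genes Mir200b, Mir200a and Mir429, microRNAs known to maintain the epithelial state by silencing Zeb factors. Mir34a, a target of the p53 pathway, lies nearer the start of the region. The mature sequences from RefSeq (GRCm38.p6, the same build as mm10) are shown because these genes hold the highest score of all the lists described here, with the seed, bases 2 to 8, in capitals.
miR-200b-3p: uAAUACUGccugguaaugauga
miR-429-3p: uAAUACUGucugguaaugccgu
miR-200a-3p: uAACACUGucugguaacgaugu
miR-34a-5p: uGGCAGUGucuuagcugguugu
The seed AAUACUG was shared by miR-200b-3p and miR-429-3p, and that of miR-200a-3p was AACACUG. The 3 genes of the cluster lie on the minus strand at chr4:156053905-156055750, within a few bins of one another, so their scores were not independent. Mir200b scored 3.23 and 3.40 in control replicates 1 and 2 and 3.20 and 3.92 in deletion replicates 1 and 2. Mir429 and Mir200a shared the values 3.24, 3.36, 3.17 and 3.90 in the same order. Mir34a scored 2.44, 2.90, 2.53 and 3.34. Control and deletion values overlapped for all 4 genes. All 9 microRNA genes of the region were early in every profile, against 37 of 47 elsewhere on the chromosome.

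The promoters shown next were picked because they mark the ends of the timing range and the genes of the late stretches described below. Ajap1 starts inside a late stretch, Camta1 spans another, and the start given for Kcnab2 had the highest score of any start in the region. Each sequence holds 250 bases before and 50 after the RefSeq start, read along the gene's strand, with every CpG (the letters CG, read alike on both strands) in capitals.
Ajap1: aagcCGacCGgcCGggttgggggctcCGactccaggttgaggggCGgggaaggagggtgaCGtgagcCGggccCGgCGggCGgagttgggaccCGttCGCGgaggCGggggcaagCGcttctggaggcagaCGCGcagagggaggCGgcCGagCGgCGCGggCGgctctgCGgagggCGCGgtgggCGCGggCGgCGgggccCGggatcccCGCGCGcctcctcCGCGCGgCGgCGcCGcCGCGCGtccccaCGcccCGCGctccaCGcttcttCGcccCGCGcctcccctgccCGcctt
Camta1: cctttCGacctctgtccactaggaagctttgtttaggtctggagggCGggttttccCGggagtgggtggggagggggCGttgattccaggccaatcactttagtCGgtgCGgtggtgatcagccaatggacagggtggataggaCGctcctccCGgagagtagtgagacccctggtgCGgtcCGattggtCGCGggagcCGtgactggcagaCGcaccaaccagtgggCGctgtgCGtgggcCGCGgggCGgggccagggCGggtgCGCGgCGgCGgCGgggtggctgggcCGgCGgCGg
Kcnab2: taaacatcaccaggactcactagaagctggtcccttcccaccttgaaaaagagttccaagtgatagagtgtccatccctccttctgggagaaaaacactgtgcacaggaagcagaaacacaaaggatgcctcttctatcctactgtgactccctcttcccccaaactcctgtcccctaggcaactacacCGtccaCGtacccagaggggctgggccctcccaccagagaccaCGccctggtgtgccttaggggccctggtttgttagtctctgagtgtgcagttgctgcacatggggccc
The Ajap1 promoter, at chr4:153482781-153483080 on the minus strand, held 51 CpGs and 80.7% G and C. Its bin scored -0.79 and -0.30 in the controls and -0.48 and -0.73 with the deletion. Among the 220 starts of the chromosome with a negative mean score it held the most CpGs, and it ranked 17 of 1367 starts in all. The Camta1 promoter, at chr4:151861719-151862018 on the minus strand, held 28 CpGs and its bin scored 2.91, 3.45, 3.34 and 3.97. The Kcnab2 promoter shown, at chr4:152448806-152449105 on the minus strand, held 3 CpGs, and its bin scored 3.38, 3.50, 2.99 and 3.82. Kcnab2 had other listed starts, with 5 CpGs at 152452945 and 25 at 152477549. The bin of the start at 152477549 scored 3.34, 3.46, 2.87 and 3.73, so a low CpG count does not describe every Kcnab2 promoter. Of the 3 promoters shown, the late one held most CpGs. Over all 169 starts of 122 genes listed for the region, the median was 21 CpGs and 63.0% G and C, against 14 and 57.8% for 1198 starts in the rest. A CpG was present in 99.4% of promoters of the region and in 97.9% of all 1367. The ratio of observed to expected CpGs was above 0.6 in 60.4% of starts in the region and in 49.0% of the others. These contrasts were smaller among early starts alone. Their medians were 21 CpGs and 62.8% G and C in the region, against 17 and 59.3% elsewhere. Their ratio was above 0.6 in 60.1% and 55.4%. In the region 168 of 169 starts were early in the mean of the profiles, compared with 81.7% elsewhere.

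Most of the region was early in every profile. The early share, the percentage of bins with a score above 0, was 86.4% and 87.3% in the controls and 86.7% and 85.6% with the deletion. The rest of the chromosome had 41.8%, 44.6%, 42.0% and 45.6%. The region was therefore ahead by 44.6, 42.8, 44.7 and 40.0 percentage points, a mean of 43.0 points, with the same direction in 4 of 4 profiles. An exact two-sided sign-flip test over the 4 profiles gave p = 0.125, the smallest it allows. Profiles of the same genotype or replicate number correlated at 0.97 to 0.99 over the chromosome. A lead this large was bound to share its sign in all of them, so the test gives no separate support. In every profile, 1417 bins (84.7%) were early and 204 (12.2%) were late, and 51 (3.05%) differed between profiles. Elsewhere 40.7% were early in every profile, 53.4% were late and 5.91% differed.

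The mean score of the region was 1.95 and 2.16 in the controls (2.05 ± 0.15, SD, n = 2) and 2.00 and 2.24 with the deletion (2.12 ± 0.17, SD, n = 2). The rest of the chromosome had -0.38, -0.09, -0.31 and 0.14. The early bins of the region were also earlier than early bins elsewhere, with means of 2.38, 2.56, 2.43 and 2.76 against 2.05, 2.20, 2.13 and 2.41. The late bins of the region were only mildly late. Their means were -0.82, -0.58, -0.81 and -0.84, against -2.13, -1.93, -2.07 and -1.76 for late bins elsewhere. The lowest score inside the region was -1.83, -1.39, -2.00 and -1.92, while the lowest elsewhere lay between -4.25 and -3.47.

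**Figure D1:**
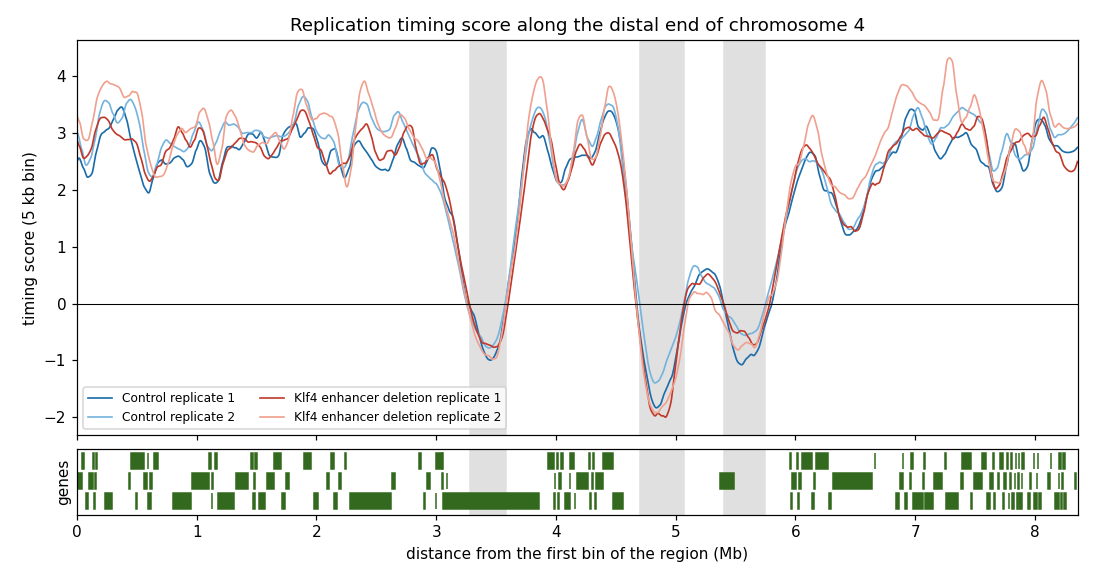
Timing score of each 5 kb bin (y axis) against distance from the first bin of the region in Mb (x axis) for the 2 control profiles (blue) and the 2 deletion profiles (red), with protein-coding genes as green bars below (spread over 3 rows for legibility) and the 3 late islands shaded. Scores stay above 0 outside the shaded stretches and their flanks, and the second island reaches the lowest values, between -2.00 and -1.39.

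The bounds of the region did not coincide with a timing boundary at its start. The first bin scored 2.49, 3.02, 2.87 and 3.30 and the bin just before it 2.47, 3.03, 2.90 and 3.33. The early stretch around the start ran in every profile from 144805000 to 151255000, 3195 kb outside and 3255 kb inside the region. At the other side the last scored bin had 2.74, 3.26, 2.49 and 3.16, so the region was early up to the last measured position. Among 18 pieces of the same length tiled back from the end, the region ranked 3 by early share and 2 by gene density. The piece from 131280000 was first in both, with 96.0% early bins and 19.4 genes per Mb.

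Late islands were defined as runs of bins that scored below 0 in every profile and were at least 50 kb long. The region held 3, of 300, 370 and 350 kb, and these contained all 204 bins that were late in every profile. They lay 3.28, 4.70 and 5.40 Mb from the first bin, so the outer parts of the region had none. Outside them the early share was 98.4%, 99.5%, 98.7% and 97.5%. Since the islands were chosen by their level, their scores are a description.

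The first island, chr4:151280000-151579999, lay wholly inside Camta1 (gene 100072), a calmodulin-binding transcription activator and, at 802 kb, the longest gene of the region. Its mean score was -0.62 and -0.53 in the controls and -0.59 and -0.72 with the deletion. Camta1 lies on the minus strand at chr4:151059523-151861768 and was early at both ends. Over eighths of the gene from the 5′ end, the mean of the profiles was 3.22, 1.85, 0.25, -0.75, -0.76, -0.27, 0.64 and 1.63. The fall was present in each profile. The first eighth scored 3.0, 3.23, 3.03 and 3.63 and the fifth -0.83, -0.69, -0.68 and -0.86. Of its 162 bins 60 were late and 92 early in every profile, so its mean over the whole gene, 0.75, describes neither part. The gene table gives no exons, and where the island lies relative to introns was not analysed here.

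The second island, chr4:152700000-153069999, was the latest and overlapped no protein-coding gene. It lay between Nphp4, a gene of the ciliary transition zone, 137 kb away and Ajap1, a membrane protein of adherens junctions, 303 kb away, in the longest gap of the region without a protein-coding gene (810 kb). Its mean score was -1.25 and -0.85 in the controls and -1.45 and -1.48 with the deletion. At its lowest position, 152830000, the 4 profiles scored -1.82, -1.39, -1.97 and -1.91. Only 3 non-coding genes of the RefSeq table overlapped it, Gm833, Gm30851 and Gm30911. Its lower edge was the steepest of the 6 island edges, with a mean change of 3.59 in score over 200 kb, on the side of the early gene Nphp4 (3.03, 3.03, 2.61 and 3.29).

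The third island, chr4:153400000-153749999, held the start and most of the body of Ajap1 (gene 230959, chr4:153373221-153483795), 83.8 kb of its 111 kb. Its mean score was -0.76 and -0.38 in the controls and -0.48 and -0.62 with the deletion. Ajap1 was the only protein-coding gene of the region with a negative mean, scoring -0.25, -0.16, -0.17 and -0.45. The values fell towards its 5′ end, from a mean of 0.06 in its last eighth to -0.55 in its first. Between the second island and the third lay 330 kb at 0.37 and 0.36 in the controls and 0.33 and 0.03 with the deletion. This bridge was the least early stretch between islands and stayed under 1 in every profile.

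**Figure D2:**
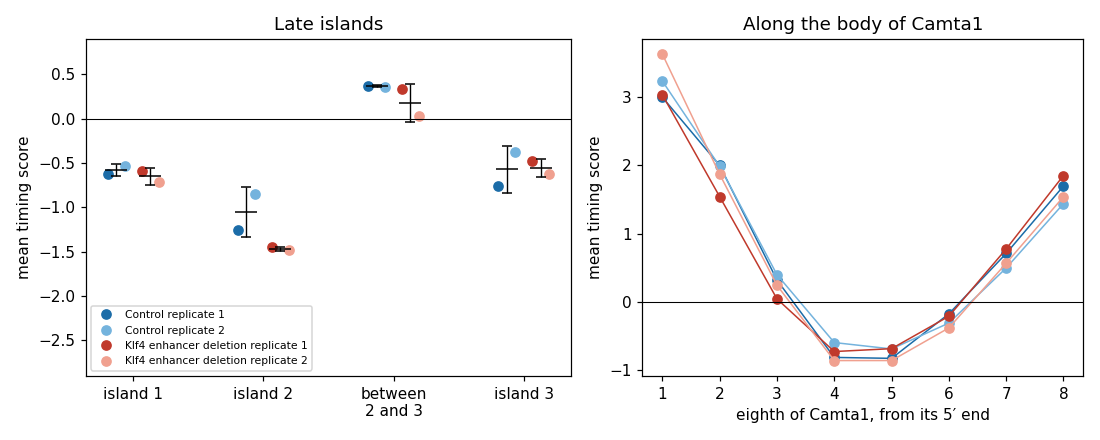
Left, mean timing score of the 3 late islands and of the 330 kb between islands 2 and 3, 1 point per profile, with black bars for the mean and SD of each genotype (n = 2). Right, mean score in eighths of Camta1 from its 5′ end, 1 line per profile. In island 2 both deletion profiles (-1.45 and -1.48) lie below both controls, and in Camta1 all 4 lines fall below 0 from the fourth to the sixth eighth.

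The region held 3 islands under each alternative except the scalings that centre a profile on its median, which left 2. With median centring the second island kept 290 kb, the first shrank to 60 kb and the third was not found. With quantile normalization all 3 remained, at 250, 365 and 330 kb. The third island and the late call of Ajap1 therefore rested on scores within 1 of 0.

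Genes were dense in the region. RefSeq listed 143 protein-coding genes overlapping it, 17.1 per Mb, against 7.99 per Mb for 1158 genes in the rest. They covered 65.0% of its bins, compared with 42.4% elsewhere. Among bins early in every profile the contrast was smaller, with 20.0 genes per Mb in the region and 15.5 elsewhere. Genes covered 70.1% and 60.9% of those bins. The 3 islands together held 2 genes, 1.96 per Mb, and the region outside them 19.5 per Mb. Bins within genes were early in 92.2% of cases, averaged over profiles, and bins between genes in 76.3%. Elsewhere on the chromosome these shares were 61.3% and 30.2%, a direction that follows from how the sign of the score was read. The genes of the region were shorter, with a median of 14.8 kb against 20.0 kb.

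The islands lay both in long gaps between genes and inside genes, and 37.7% of their bins overlapped a protein-coding gene. Of 2 gaps of at least 400 kb, that from Nphp4 to Ajap1 had a mean score of -0.25, -0.06, -0.40 and -0.49. That from Ajap1 to A430005L14Rik had -0.23, 0.12, 0.02 and -0.07. Elsewhere, 41 of 52 such gaps were late in every profile. All 5 gaps of 100 to 400 kb in the region were early in every profile, for example the 202 kb between Slc45a1 and Errfi1 at 2.67, 3.05, 2.90 and 3.11. Elsewhere 41 of 81 gaps of that size were early in every profile and 35 late. Of 10 genes longer than 100 kb in the region, 9 were early in every profile, against 77 of 133 elsewhere. Rere, a nuclear receptor co-regulator of 340 kb, scored 2.55, 3.20, 2.82 and 3.25.

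In 500 kb windows the same pattern held. Of 17 windows in the region, 14 were early in every profile and none was late in every profile, against 119 and 152 of 290 elsewhere. Gene count and score had a Spearman rho of 0.684 over the 17 windows (a description). The window at 155.0 Mb ranked 3 of 307 by score, at 2.88, 3.20, 3.01 and 3.57, with 10 genes. The window at 155.5 Mb, with 26 genes the fullest of the region, ranked 53 at 2.45, 2.74, 2.73 and 2.73. The lowest window, at 152.5 Mb with 1 gene, scored -0.19, 0.09, -0.45 and -0.28.

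**Figure D3:**
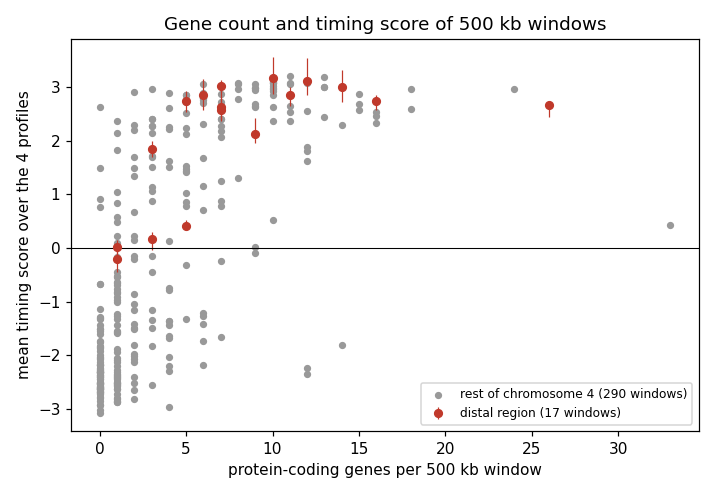
Mean timing score over the 4 profiles (y axis) against the number of protein-coding genes per 500 kb window (x axis), for 17 windows of the region (red, bars from the lowest to the highest profile) and 290 windows elsewhere (grey). Windows of the region with 6 or more genes all lie above 2, and those with 1 gene lie near 0.

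At the level of genes, 142 of 143 protein-coding genes were early in every profile, against 895 of 1158 (77.3%) elsewhere. The median gene scored 2.76, against 2.51 elsewhere, and 130 genes (90.9%) were above 2, against 57.1%. The genes with the highest means were Disp3 (3.42), Ttll10 (3.37), Pank4 (3.35), Kcnab2 (3.35) and Hes5 (3.34). Disp3, a relative of Dispatched, scored 3.08, 3.52, 3.20 and 3.89. Hes5, a Notch effector that represses neuronal differentiation, scored 3.41, 3.11, 3.08 and 3.75. The lowest 5 were Ajap1, Camta1, Prdm16 (1.67), Gm13090 (1.75) and A430005L14Rik (1.87). Prdm16, a regulator of brown fat and of neural and blood stem cells, scored 1.52, 1.58, 1.55 and 2.04 and spans 321 kb without reaching late values. Gm13090 and A430005L14Rik are the nearest genes beside the first and the third island. At the bounds, Nppa, which encodes atrial natriuretic peptide, scored 2.49, 3.02, 2.87 and 3.30. Vmn2r129, of the vomeronasal receptor family, scored 2.69, 3.19, 2.36 and 3.11.

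All 23 listed genes of growth and metabolism were early in every profile, with a median of 2.81. They included Prkcz, an atypical protein kinase C, at 2.85, 3.25, 2.96 and 4.07, and Pex10, a peroxisome assembly factor, at 3.05, 3.22, 2.97 and 3.49. Their lowest members were the glycolytic enzyme gene Eno1 (2.22, 2.41, 2.46 and 2.15) and Dffb, the caspase-activated DNase (1.78, 1.96, 1.96 and 2.17). All 19 transcription and chromatin genes were early too (median 2.68), with Hes5 and the SMAD co-repressor Ski (2.63, 2.96, 2.98 and 3.30) highest and Prdm16 and Camta1 lowest. Of 12 nervous system and sensory genes 11 were early in every profile (median 2.78). Kcnab2, a potassium channel beta subunit, was highest (3.33, 3.46, 2.96 and 3.64), followed by the GABA receptor subunit Gabrd (2.95, 3.44, 3.14 and 3.20). Megf6 (2.16, 2.28, 2.37 and 2.65) and the late Ajap1 were lowest. All 11 signalling genes were early (median 2.79). The TNF receptor family genes Tnfrsf14 (3.25, 2.98, 3.07 and 3.83) and Tnfrsf18 (3.23, 3.13, 3.05 and 3.68) led this list, and the exchange factor genes Plekhg5 (2.43, 2.16, 2.12 and 2.16) and Arhgef16 (1.95, 1.84, 2.19 and 2.14) were lowest. The medians of these 4 lists lay between 2.68 and 2.81, on both sides of that of all genes of the region.

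No genotype difference in the region passed the tests. The mean score differed by 0.068 (deletion minus control), less than the spread between replicates of one genotype, with p = 0.667 in an exact two-sided permutation test, whose smallest possible p is 0.333. The median difference of all positions of the chromosome was 0.16, so the region moved by -0.088 relative to it. This was not particular to the region, which ranked 5 from the lowest among the 18 pieces of equal length. The early pieces from 139640000, 131280000 and 122920000 moved by -0.111, -0.120 and -0.105. The lead of the region over the rest was 2.33 and 2.25 in the controls and 2.31 and 2.10 with the deletion, a difference of -0.084 (exact permutation p = 0.667). Both signs depended on the settings. The first turned negative under all 3 other scalings (from -0.088 to -0.043) and without control replicate 1 (-0.040) or deletion replicate 2 (-0.053), and the second turned positive (0.021) without deletion replicate 2. The early share differed by -0.75 percentage points (control 86.9 ± 0.63, deletion 86.1 ± 0.76, SD, n = 2; exact permutation p = 0.667).

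With limma and Benjamini-Hochberg adjustment over the chromosome, 0 of 1672 positions, 0 of 17 windows and 0 of 143 genes were called in the region. The same held on the whole chromosome, where 0% of 30659 positions, 0% of 307 windows and 0% of 1301 genes were called. At an unadjusted p under 0.05, limma gave 0 positions, windows or genes in the region and 299 positions, 3 windows and 17 genes on the chromosome. This count in the region depended on the settings. It was 10 positions with quantile normalization, 13 with median centring, and 27 positions and 6 genes without deletion replicate 1, none of them called after adjustment. The smallest adjusted p from limma in the region was 0.989 for windows. In simulated profiles the same fit recovered 70.5% of differences of 2 at single positions, 96.7% in windows and 99.5% in genes, but 0.5%, 3.33% and 39.5% of differences of 1. Differences below 1, such as all those seen in the region, were not simulated. The simulated noise was independent between features and profiles, with 1 pooled spread. In the data whole profiles were offset, with chromosome medians of -0.79 and -0.37 in the controls and -0.73 and -0.21 with the deletion. Recovery under such shared offsets was not tested, so these rates need not hold for the data.

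Beyond these tests, positions were counted where the profiles did not overlap. Both deletion profiles lay above both controls at 251 positions of the region (15.0%), against 16% of the chromosome. They lay below both at 228 (13.6%), against 5.86% of the chromosome. This split depended on the scaling, since quantile normalization gave 191 above and 331 below, with 14.9% below on the whole chromosome. With median centring the share below was 10.8% in the region and 12.1% on the chromosome. Of 17 windows 1 lay above and 1 below, against 12.7% and 4.23% of all windows. Of 143 genes 31 (21.7%) lay above and 16 (11.2%) below, against 15.1% and 6.53% of all genes.

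The longest run of such positions covered the second island and its lower flank, where both deletion profiles lay below both controls over 390 kb, from 152630000 to 153019999. Over the island itself the control mean was -1.05 ± 0.28 and the deletion mean -1.47 ± 0.02 (SD, n = 2), a difference of -0.41 (exact permutation p = 0.333, the smallest possible). At 64 of its 74 bins the deletion profiles were both lower. The direction held under each scaling. Leaving out 1 profile could not turn it, because the genotypes did not overlap, and moved the difference between -0.61 and -0.21. The lowest difference of the region, -0.61, was at 152940000. The lower edge of this island, where the score crossed 0, lay at 152675 and 152699 kb in the controls and at 152668 and 152671 kb with the deletion. Its width at score 0 was 412 and 368 kb in the controls and 403 and 433 kb with the deletion, which overlap. The mean scores of the other islands overlapped between genotypes. That of the first differed by -0.074 (p = 0.667) and that of the third by 0.017 (p = 1, both exact permutation tests). The sign of the third turned under all 3 scalings. The widths of the first island at score 0 did not overlap, but the nearest values were closer than the length of 1 bin. They were 314 and 322 kb in the controls and 325 and 328 kb with the deletion (exact permutation p = 0.333, the smallest possible). Widths depend on the zero point, since median centring shrank this island from 300 to 60 kb, and their separation was not tested under other scalings. Those of the third island overlapped, at 404 and 369 kb in the controls and 385 and 451 kb with the deletion.

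**Figure D4:**
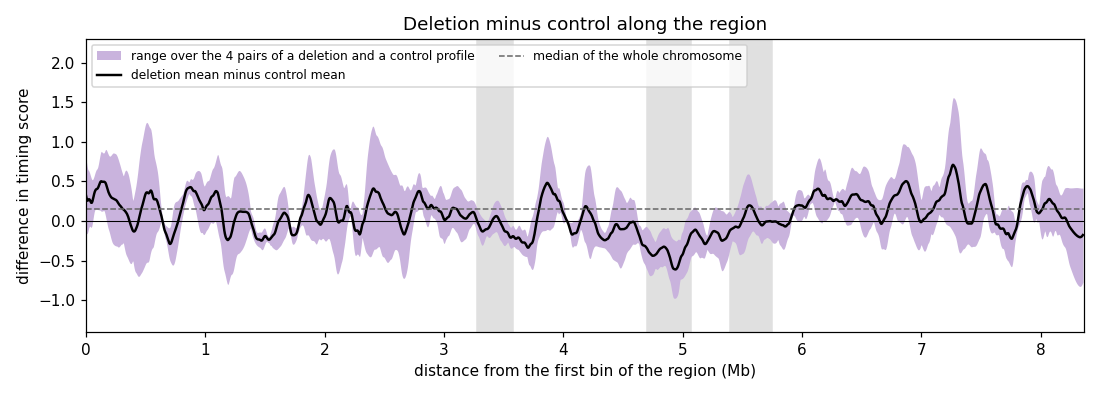
Difference in timing score, deletion minus control (y axis), against distance from the first bin of the region in Mb (x axis), as the difference of the genotype means (black line) with the range over the 4 pairs of a deletion and a control profile (purple), and the median difference of the chromosome, 0.16 (dashed). The line is lowest, at -0.61, in the second late island (grey) and highest, at 0.71, near the right end, where the range is wide.

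The region held 10 runs below both controls in all. One of 20 kb, from 151350000, lay inside the first island, at -0.55 and -0.54 in the controls and -0.57 and -0.72 with the deletion. One of 200 kb, from 151530000, covered the upper edge of the first island and the slope inside Camta1, at 0.73 and 0.81 in the controls and 0.43 and 0.63 with the deletion. Another of 165 kb, from 149410000, held Ube4b, Rbp7, Nmnat1, Tmem274, Lzic and Ctnnbip1. Its 3 genes Tmem274, Nmnat1 and Rbp7 had the lowest gene differences of the region, all -0.24. Nmnat1, the nuclear enzyme of NAD synthesis, scored 2.96 and 3.03 in the controls and 2.83 and 2.67 with the deletion. Under each other scaling the genotypes overlapped for all 3 genes. Because Tmem274 lies within Nmnat1 and Rbp7 beside it, these are 1 measurement rather than 3.

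Runs in which both deletion profiles lay above both controls were shorter, up to 235 kb. The longest, from 153915000, followed the third island and held 8 genes from A430005L14Rik to Wrap73, with Trp73, a p53 family member, at 2.56, 2.52, 2.74 and 3.01. The window at 154.0 Mb, with most of these genes, scored 1.97 and 2.01 in the controls and 2.12 and 2.42 with the deletion. Its genotypes overlapped under each other scaling, and its difference of 0.29 fell to 0.094 with quantile normalization and 0.17 with median centring. The highest gene differences were those of Faap20 (0.64), Mad2l2 (0.50) and Fbxo6 (0.50). Mad2l2, a translesion synthesis and shieldin subunit, scored 2.40 and 2.76 in the controls and 2.88 and 3.27 with the deletion, and its neighbour Fbxo6 scored 2.52, 2.85, 2.99 and 3.38. Faap20, of the Fanconi anaemia core complex, scored 2.63, 3.10, 3.01 and 4.01, so its groups overlapped. Under the other scalings they did not, at differences of 0.44 with quantile normalization and 0.53 with median centring. Its difference fell to 0.14 when deletion replicate 2 was left out. That profile also held the highest score of the region, 4.31, while the other 3 peaked between 3.40 and 3.64. None of these genes passed limma (adjusted p = 0.999 for each).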

How the data were processed

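Repli-seq of early and late S-phase DNA gave 4 profiles from 8 libraries, 40000 cells per fraction per the labels' protocols. The deposited values are timing scores per 5 kb position of chromosome 4, scaled by the authors to a common interquartile range per the file headers and name. Bowtie2, SAMtools, bedtools and mm10 are named in the submitters' processing notes. No source used here gives the log base, the smoothing or the read depth, so no counting error can be stated. The position was taken as the start of its bin.

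Positions lacking a score in any profile (642 of 31301) were left out. Scores were averaged over the bins that a gene overlaps (RefSeq table, GRCm38.p6: 1301 of 1328 protein-coding genes measured). Genotypes were compared two-sided by limma 3.58.1 (lmFit, eBayes; R 4.3.3), fitted to every position, 500 kb window and gene of the chromosome, with Benjamini-Hochberg adjustment at 0.05. Single values were compared by exact permutation in Python 3.11.15. The fits were tested on simulated data with independent noise. Named genes were the 2 highest and 2 lowest of each list, genes in and beside islands, the 5 highest and 5 lowest scores, the 3 highest and 3 lowest differences, listed microRNA genes and genes at the bounds. The other genes and the promoters were picked after their values were seen. The region, members and lists were chosen with earlier results of these data known. Alternatives were scaling, leaving out each profile, replicate blocks, the start of the region, thresholds, window sizes, island lengths, limma options and bin ends.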

Additional observations from a re-analysis of the deposited data

How the results depend on the processing

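Of 162 recomputed values, 151 kept their direction, or their count within 1.5 times. Another 13, differences of means with a replicate block, equal the unblocked value by construction with 2 balanced pairs and are not counted. Some of the counted values could not change either. Leaving out 1 profile cannot turn a difference whose genotypes do not overlap. Scaling by the median and interquartile range nearly repeats median centring, because the profiles already shared their interquartile range. The count of kept values is therefore no measure of robustness. The genotype difference of the region turned to -0.088 with quantile normalization and to -0.043 with median centring or with scaling by the median and interquartile range of a profile. Leaving out 1 profile moved it between -0.053 and 0.19, and moved the difference relative to the rest between -0.19 and 0.021. The difference of the third late island was -0.096 with quantile normalization and -0.093 with the other scalings, and lay between -0.17 and 0.21 without 1 profile. For the scalings the zero point moves by construction; for the single profiles the cause was not tested. No alternative called a position, window or gene of the region. On the whole chromosome the replicate block called 785 positions, leaving out deletion replicate 2 called 57 positions and 1 window, and leaving out deletion replicate 1 called 4 genes, against 0 in each fit of all profiles without a block. The labels do not say that equal replicate numbers mark a shared batch, and there are only 2 pairs, so the block is given here only. Deviations of same-numbered profiles from their genotype means had a correlation of 0.25 over the bins of the region and 0.64 over those of the chromosome. With the block, the smallest limma adjusted p of a position in the region was 0.074, and 77 positions, 1 window and 10 genes of the region had an unadjusted p under 0.05, against 0 of each without it. The early share kept its lead over the rest in each alternative, from 40.8 to 44.9 percentage points. The number of profiles limits the precision, and depth is unknown.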

Other observations

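Non-coding genes were also dense at the distal end, though not every class. RefSeq listed 72 lncRNA genes there, 8.61 per Mb against 4.84 per Mb in the rest of the chromosome. The 9 microRNA genes gave 1.08 per Mb against 0.32 per Mb. Pseudogenes were sparser, at 2.15 per Mb (18 genes) against 3.57 per Mb, and 2 snoRNA genes gave 0.24 per Mb against 0.49 per Mb. The third late island overlapped 5 non-coding genes, more than the second (3) and the first (1).

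Beyond the 4 listed, the remaining microRNA genes of the region were Mir7022, Mir5616, Mir7023, Gm51276 and Mir7658, with mean scores of 2.91, 2.89, 2.80, 2.86 and 2.81. Mir7022 lies within Fbxo6, the neighbour of Mad2l2, and scored 2.49 and 2.83 in the controls and 2.96 and 3.35 with the deletion. Mir5616 went the other way, at 3.01 and 3.01 in the controls and 2.74 and 2.81 with the deletion. The 2 genes share bins with the runs around Mad2l2 and Nmnat1, so they add no separate measurement.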
